A study of Mus musculus with 12 samples.

Results

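Tg26 mice treated with the PKR inhibitor C16 were compared with untreated WT mice by bulk RNA-seq of the outer kidney cortex, which asks how far the kidney of a treated transgenic mouse still differed from a healthy one. The comparison used 6 of the 12 libraries of the experiment, chosen by their genotype and treatment labels, with 3 mice on each side. The 4 groups of 3 mice were C16-treated Tg26, untreated Tg26, C16-treated WT and untreated WT, all on the FVB/N background and all killed at 12 weeks of age. Tg26 mice were hemizygous for an HIV-1 transgene that lacks gag and pol. C16 was injected intraperitoneally at 10 µg/kg in 10 ml/kg of 0.5% DMSO in PBS, 3 times per week from 6 weeks of age, and treated below always means treated with C16. The labels call the 2 untreated groups control and do not say whether these mice received the DMSO vehicle. C16-treated Tg26 and untreated WT mice thus differed in genotype and in treatment at once, and neither alone can be read from this comparison, so for many of the genes the values of the other 2 groups are given beside it.

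HIV-associated nephropathy combines collapse and scarring of glomeruli with dilated, injured tubules and an inflamed, fibrotic interstitium, and the Tg26 mouse is a model of it. PKR, the product of Eif2ak2, is a kinase that binds double-stranded RNA, phosphorylates the translation factor eIF2α and feeds into inflammatory signaling. In an injured kidney, tubule cells lose transport and fatty acid oxidation genes and switch on injury genes such as Havcr1 (KIM-1), while macrophages enter the interstitium and fibroblasts lay down matrix.

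Total counts were 23931088 to 25149433 in C16-treated Tg26 libraries and 22949316 to 26310707 in untreated WT libraries. TMM factors, which correct for a few genes taking up reads, were 0.996 to 1.07 in C16-treated Tg26 libraries and 0.901 to 0.921 in untreated WT libraries. Cortex identity was plain in both groups, with Slc34a1, the phosphate transporter of the proximal tubule, at 5900 to 7460 CPM (counts scaled to a common library size) in C16-treated Tg26 mice and 7760 to 8470 CPM in untreated WT mice. Umod, of the thick limb, was at 2060 to 2680 CPM in C16-treated Tg26 mice and 2350 to 2800 CPM in untreated WT mice. The neutrophil marker Ly6g had no count in either group, but other neutrophil markers did. S100a8 was at 0.528 to 1.7 CPM in C16-treated Tg26 mice and 0.915 to 1.48 CPM in untreated WT mice. Csf3r was at 1.99 to 4.3 CPM and 0.867 to 2.2 CPM in these groups. The lack of Ly6g counts therefore does not show that neutrophils were absent. The study used both sexes, but all 12 libraries expressed Y-linked genes. They held 512 to 704 counts of Uty and at most 8 counts of Xist. On the first principal component, which held 50.9% of the variance, C16-treated Tg26 replicates 1, 2 and 3 lay at 2.07, 15.9 and 20.2, all between the untreated Tg26 mice (26.1 to 49.5) and the untreated WT mice (-25.2 to -22.6).

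In C16-treated Tg26 mice 218 genes were higher and 38 lower than in untreated WT mice, of 16094 tested. These are 1.35% and 0.236% of the genes (1.59% together) at an adjusted p below 0.05 in edgeR's quasi-likelihood test, with Benjamini-Hochberg adjustment over all genes tested, and are referred to as called. The 218 higher genes had a median log2 fold change of 1.96, and 197 of them changed by more than 2-fold. The 38 lower genes had a median of -0.83, and 13 of them changed by more than 2-fold. Counts of called members in the lists and families below stand against 1.35% higher and 0.236% lower over all genes. At the latter share most lists would hold 0 lower genes. The median over all genes tested was 0.01, and it was 0.19 when libraries were scaled by their totals alone, a shift that applies to every gene and list below. With the same fit, 2528 genes (15.7%) were higher and 1691 (10.5%) lower in untreated Tg26 than in untreated WT mice, 26.2% together, and these 2 comparisons share the untreated WT mice.

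The size of the lists of called genes hung on single mice. Leaving out C16-treated Tg26 replicate 3 left 40 genes higher and 1 lower, and leaving out replicate 2 left 72 and 6, whereas without replicate 1 there were 303 and 21. Without untreated WT replicates 1, 2 and 3 the counts were 106 and 62, 28 and 0, and 36 and 1. The untreated Tg26 mice are not part of the comparison but enter the estimate of the spread, and without their replicates 1, 2 and 3 the counts were 569 and 273, 157 and 23, and 336 and 99. Without C16-treated WT replicate 1 there were 146 and 24. No called gene was called in the opposite direction in any of these fits. Of the 218 higher genes, 24 were called under all 21 alternatives tried: Adam8, Ccl2, Cd300a, Cd44, Cd68, Ciita, Dock10, Gabrp, Gm49339, Gpnmb, Grem1, Il1rn, Itgax, Krt19, Lilrb4a, Lyz1, Lyz2, Mmp12, Mpeg1, Muc4, Naaa, Ptafr, Traf1 and Trem2. Of the 38 lower genes 0 were.

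**Figure D1:**
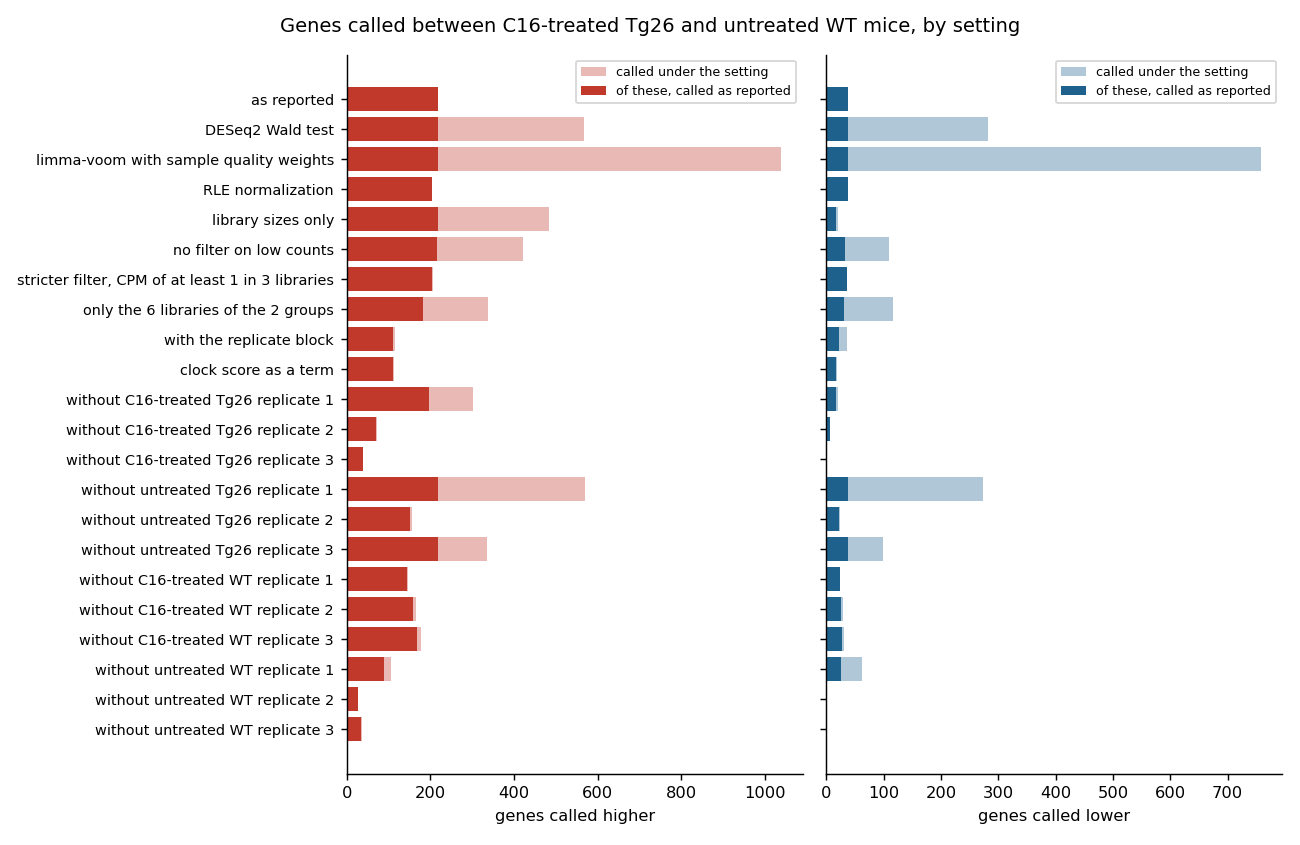
Number of genes called higher (left) and lower (right) in C16-treated Tg26 than in untreated WT mice, in the reported fit (218 and 38) and under each alternative; the dark part of each bar counts genes that the reported fit also calls. Leave-one-out counts ran between 28 and 569 higher genes and between 0 and 273 lower genes.

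Several of the largest changes were in genes of macrophages. Gpnmb, a transmembrane glycoprotein of lipid-laden and phagocytic macrophages (chromosome 6, 49036546 to 49070929, + strand; mm10), had 10.9, 23.1 and 30.3 CPM in C16-treated Tg26 mice, 32.0, 41.9 and 55.4 in untreated Tg26 mice, 0.140, 0 and 0.0467 in treated WT mice and 0.0458, 0.0422 and 0.193 in untreated WT mice. Gpnmb was nearly silent in all 6 WT mice and clear in every Tg26 mouse, treated or not. The log2 fold change was 7.81 ± 0.59 (SE, n = 3 each, adjusted p = 0.000162). Mmp12, the macrophage elastase (chromosome 9, 7344381 to 7369499, + strand), had 8.62, 15.7 and 18.4 CPM in C16-treated Tg26 mice, 26.9, 23.2 and 22.6 in untreated Tg26 mice, 0.978, 0.791 and 0.701 in treated WT mice and 0.687, 0.549 and 0.482 in untreated WT mice. All 3 treated Tg26 mice stayed below the untreated Tg26 mice and above every WT mouse. The gene had the smallest adjusted p of the comparison (log2 fold change 4.62 ± 0.30, adjusted p = 5.45e-05).

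Lyz2, lysozyme of myeloid cells (chromosome 10, 117277331 to 117282321, - strand), had 124, 229 and 319 CPM in C16-treated Tg26 mice, 500, 427 and 382 in untreated Tg26 mice, 19.5, 12.0 and 16.1 in treated WT mice and 14.6, 11 and 8.38 in untreated WT mice. Every Tg26 mouse was above every WT mouse in Lyz2 (log2 fold change 4.30, adjusted p = 0.000202). Its neighboring paralog Lyz1 had 2.48, 4.51 and 7.85 CPM in C16-treated Tg26 mice, against 0.0915, 0.0844 and 0 in untreated WT mice, but reads may be split between the near-identical copies, so its own level is uncertain. Bcl2a1b, a Bcl-2 relative that protects leukocytes from apoptosis, had 1.06, 2.61 and 3.48 CPM in C16-treated Tg26 mice, against 0.183, 0.211 and 0 in untreated WT mice (4.10, adjusted p = 0.0211), and it too has near-identical copies. Cd68, a lysosomal protein used to mark macrophages, had 6.67, 8.86 and 12.9 CPM in C16-treated Tg26 mice, 27.8, 18.7 and 20.9 in untreated Tg26 mice, 1.68, 2.21 and 2.52 in treated WT mice and 2.11, 2.41 and 1.59 in untreated WT mice. Cd68 was higher than in untreated WT mice (log2 fold change 2.21 ± 0.27, adjusted p = 0.00421) and also lower than in untreated Tg26 mice (-1.25, adjusted p = 0.0356), so its level in treated Tg26 mice differed from both.

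The 24 macrophage markers tested had a median log2 fold change of 1.64, against 0.01 over all genes. Of them 11 were called higher and 0 lower, against 1.35% and 0.236% of all genes. Besides Lyz2 and Cd68 these were Mpeg1 (2.21), the perforin-like pore protein of phagosomes, Itgax (2.56), the integrin CD11c, Ms4a7 (3.44), the protease Ctss (2.27), Tyrobp (1.90), an adaptor of activating receptors, Aif1 (2.16), the Fc receptor Fcgr3 (1.87), Laptm5 (1.62) and Cybb (1.21), the catalytic subunit of the phagocyte NADPH oxidase. In untreated Tg26 mice all 24 were called above untreated WT, with a median of 2.86, where 15.7% of all genes were called in that direction. Adgre1 (F4/80; 1.81, adjusted p = 0.0519), C1qa (1.31, adjusted p = 0.0945) and Csf1r (0.31, adjusted p = 0.482) did not pass in treated Tg26 mice, and the scavenger receptor Cd163 had a negative value (-0.47, adjusted p = 0.640). The summed level of the list was 386, 623 and 791 CPM in C16-treated Tg26 replicates 1, 2 and 3, against 144 to 180 CPM in untreated WT mice, with no overlap. More macrophages and more RNA per macrophage cannot be told apart in bulk tissue. The number of called members was 18 without untreated Tg26 replicate 1, 4 and 5 without untreated WT replicates 2 and 3, and 6 without C16-treated Tg26 replicate 3.

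**Figure D2:**
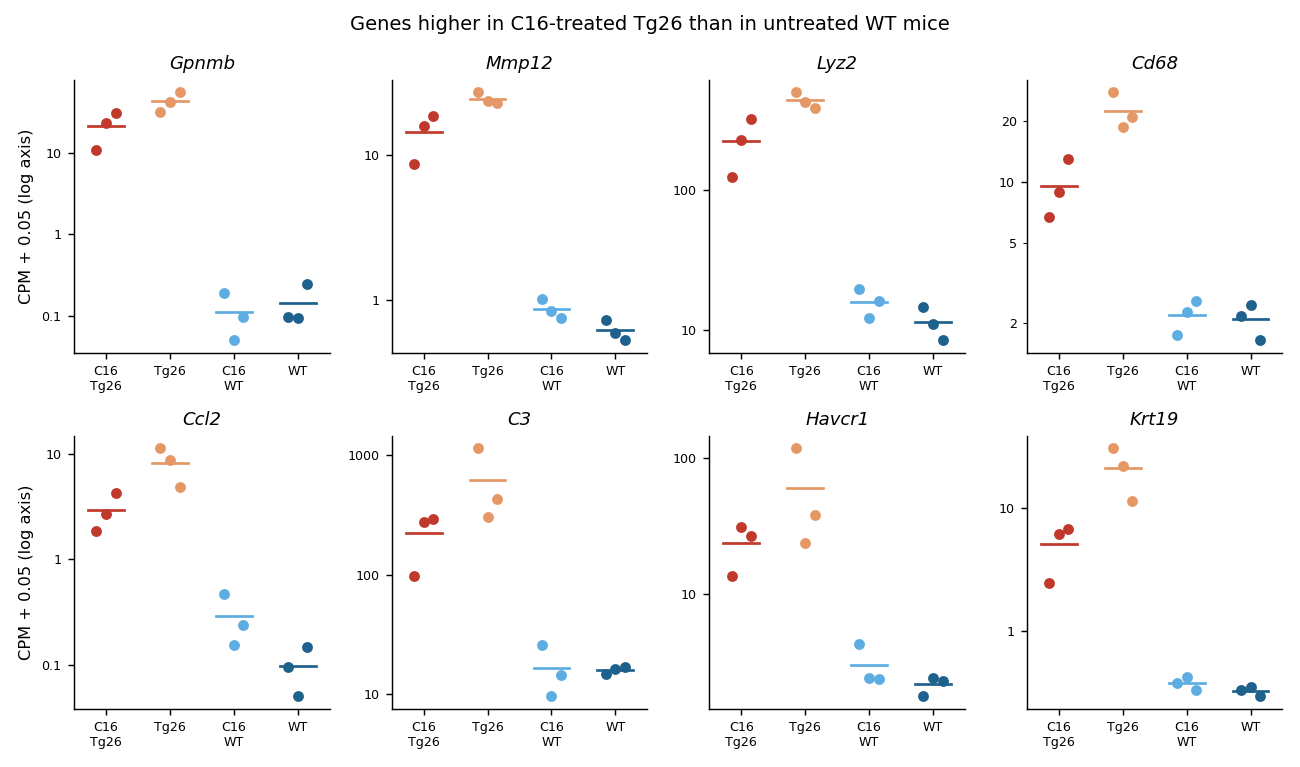
CPM (plus 0.05, log axis) of 8 genes in each mouse of the 4 groups, C16-treated Tg26 at the left and untreated WT at the right of each panel; points are mice and lines are group means. Gpnmb in C16-treated Tg26 mice was at 10.9 to 30.3 CPM and in untreated WT mice at 0.0422 to 0.193 CPM, and in each panel the treated Tg26 mice lie above all 3 untreated WT mice.

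Some receptors by which myeloid cells sense microbes and debris were called, in families that were picked out by symbol after the values had been seen. Of 27 C-type lectin receptors tested, 9 were called higher and 0 lower, among them Clec7a (dectin-1, the receptor for fungal β-glucan), which had 2.52, 4.14 and 4.85 CPM in C16-treated Tg26 mice, against 1.10, 0.591 and 0.771 in untreated WT mice (log2 fold change 2.22 ± 0.32, adjusted p = 0.00717). Untreated Tg26 mice had 7.44, 5.88 and 6.22 CPM of Clec7a and treated WT mice 0.652, 0.685 and 0.374. Cd209a, a DC-SIGN homolog, had 2.68, 4.55 and 4.33 CPM in C16-treated Tg26 mice, against 1.10, 0.844 and 0.674 in untreated WT mice (2.14, adjusted p = 0.00888). Mgl2 (CD301b), which marks a subset of macrophages and dendritic cells, had 9.68, 10.6 and 17.8 CPM in C16-treated Tg26 mice, against 3.62, 2.32 and 1.3 in untreated WT mice (2.39, adjusted p = 0.0230). The groups did not overlap for any of these 3 genes, as was so for all 218 higher genes, against 14.1% of all genes tested with no overlap in that direction. Of 18 receptors of the paired immunoglobulin-like and CD300 kind, 7 were called higher. Trem2, which recognizes lipids on phagocytes, had 2.52, 3.52 and 4.33 CPM in C16-treated Tg26 mice, 10.9, 8.63 and 6.81 in untreated Tg26 mice, 0.326, 0.105 and 0.234 in treated WT mice and 0.320, 0.338 and 0.0963 in untreated WT mice (3.74 ± 0.41, adjusted p = 0.00370). Treated Tg26 mice had less Trem2 than untreated Tg26 mice (adjusted p = 0.0410). Toll-like receptors Tlr2 (2.10), Tlr4 (1.31) and Tlr13 (1.83) were called of 12 tested, and so were Cd48, Cd84, Ly9 and Slamf7 of 8 SLAM family members and relatives. Of the called genes of these 4 families, Trem2, Cd300a and Lilrb4a were called whichever of the 12 libraries was left out. The others, all 9 lectins among them, lost the call in at least 1 of these fits. Without untreated WT replicate 3 the adjusted p was 0.060 for Cd209a, 0.0719 for Clec10a, 0.0681 for Clec4d and 0.101 for Clec4n. Without untreated WT replicate 2 it was 0.0561 for Clec7a. Tlr4 and Tlr13 lost the call in 9 of the 12 fits.

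Promoters of the called genes were searched for the STAT core TTCNNNGAA, since Stat3 was a gene of interest of the study. The motif reads the same on both strands, and the sequences are RefSeq windows from 250 bases before to 50 after a gene's start (GRCm38.p6). Of 218 higher genes 156 had such a window, and 16 of them (10.3%, 95% Wilson interval 6.41 to 16) held a match, against 8.47% of 11641 genes tested with a window. Of 24 windows among the lower genes 3 held one (12.5%, 4.34 to 31.0). In the 150 bases before the start alone, the motif was in 7.05% of the higher genes (3.98 to 12.2), 8.33% of the lower genes (2.32 to 25.8) and 4.22% of all genes tested. These differences were not tested. The 3 called genes with the smallest adjusted p among those with a match are shown, picked after the values had been seen, so that the motif can be read in place. The match is in capitals. They are Fgl2, a prothrombinase and immune regulator (chr5:21372423-21372722, + strand), Lilr4b, a leukocyte immunoglobulin-like receptor (chr10:51480362-51480661, + strand), and Csf2rb2 (chr15:78305672-78305971, - strand). Csf2rb2 is a beta chain of the interleukin-3 receptor. The match began 36, 104 and 15 bases before the start.
Fgl2: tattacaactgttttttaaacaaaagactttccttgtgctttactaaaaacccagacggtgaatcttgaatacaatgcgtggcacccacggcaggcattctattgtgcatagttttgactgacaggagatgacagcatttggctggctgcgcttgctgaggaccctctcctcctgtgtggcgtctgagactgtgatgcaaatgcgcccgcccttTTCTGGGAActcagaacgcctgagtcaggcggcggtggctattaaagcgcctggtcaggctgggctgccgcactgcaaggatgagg
Lilr4b: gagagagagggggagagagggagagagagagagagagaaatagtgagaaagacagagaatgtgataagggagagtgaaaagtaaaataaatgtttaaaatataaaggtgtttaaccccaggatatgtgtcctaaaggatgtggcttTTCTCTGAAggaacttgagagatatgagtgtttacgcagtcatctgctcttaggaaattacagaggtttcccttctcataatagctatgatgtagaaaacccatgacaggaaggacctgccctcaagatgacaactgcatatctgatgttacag
Csf2rb2: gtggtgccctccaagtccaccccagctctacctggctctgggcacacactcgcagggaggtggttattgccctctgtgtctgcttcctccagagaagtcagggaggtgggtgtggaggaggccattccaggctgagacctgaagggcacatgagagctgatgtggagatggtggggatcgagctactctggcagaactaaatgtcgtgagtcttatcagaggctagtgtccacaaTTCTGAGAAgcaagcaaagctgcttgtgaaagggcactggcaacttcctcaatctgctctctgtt

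Fgl2 had 3.82, 5.75 and 8.26 CPM in C16-treated Tg26 mice, 12.9, 13.4 and 10.5 in untreated Tg26 mice, 2.14, 2.21 and 2.29 in treated WT mice and 2.33, 1.44 and 1.49 in untreated WT mice (log2 fold change 1.76 ± 0.28, adjusted p = 0.0124). Csf2rb2 had 1.54, 3.64 and 3.56 CPM in C16-treated Tg26 mice, against 0.778, 0.295 and 0.289 in untreated WT mice (2.67, adjusted p = 0.0206). Its paralog Csf2rb had 4.47, 7.24 and 8.41 CPM in C16-treated Tg26 mice, against 1.56, 1.77 and 1.20 in untreated WT mice (2.14, adjusted p = 0.0144). Csf2rb and Csf2rb2 share sequence, as do Lilr4b, Lilrb4a and the overlapping model Gm49339, so reads of these genes may be split among them and their single levels are uncertain. In each of the 3 promoter genes the treated Tg26 mice lay above all untreated WT mice, as in all 218 higher genes.

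Chemokines, which draw leukocytes into tissue, formed the next group. Of 30 tested members 8 were called higher and 0 lower, against 1.35% and 0.236% of all genes. The median log2 fold change was 1.62, and 1.60 with genes at 0 in WT set to their bound. Ccl2, the main attractant of monocytes (chromosome 11, 82035571 to 82037453, + strand), had 1.83, 2.65 and 4.26 CPM in C16-treated Tg26 mice, 11.3, 8.73 and 4.79 in untreated Tg26 mice, 0.419, 0.105 and 0.187 in treated WT mice and 0.0458, 0 and 0.0963 in untreated WT mice. The untreated WT mice held 3 counts in all, so the ratio of the groups was 65.3 with a 95% counting interval of 22.1 to 319 (adjusted p = 0.00421). Its receptor Ccr2 had 4.31, 9.85 and 11.7 CPM in C16-treated Tg26 mice, 16.1, 13.6 and 12.9 in untreated Tg26 mice, 3.03, 2.11 and 2.62 in treated WT mice and 2.01, 1.90 and 1.69 in untreated WT mice (log2 fold change 2.20 ± 0.31, adjusted p = 0.00717). Ligand and receptor were both above all untreated WT mice, as were all 218 higher genes.

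Cxcl2, a neutrophil attractant, had 0.650, 2.61 and 1.26 CPM in C16-treated Tg26 mice, against 0.0915, 0.0422 and 0.193 in untreated WT mice (log2 fold change 3.76 ± 0.65, adjusted p = 0.0189). Untreated Tg26 mice had 4.06, 1.93 and 2.25 CPM of Cxcl2 and treated WT mice 0.0931, 0.0527 and 0.0467. Ccl20, the ligand of Ccr6, had 0.528, 1.24 and 0.963 CPM in C16-treated Tg26 mice and no count in any WT mouse, at least 6.69-fold higher than a floor of 3 counts per library. Cxcl5 was likewise at least 7.28-fold higher than that floor, with 0.163, 1.37 and 1.44 CPM in C16-treated Tg26 mice. These intervals and floors cover counting error only. Ccl5 (2.56), Ccl8 (ratio 25.8, 6.84 to 218) and the T cell attractant Cxcl9 (2.47) completed the called members. Without C16-treated Tg26 replicate 2 or 3, 2 chemokine genes were called, and without untreated WT replicate 1, 2 or 3 there were 2, 1 and 1. Without untreated Tg26 replicate 1 there were 14, and 5 without untreated Tg26 replicate 2 or C16-treated WT replicate 1.

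Among the interleukin-1 family, also picked after the values were seen, 4 of 13 tested genes were called higher and 0 lower. Over all genes these shares were 1.35% and 0.236%. Il1rn, the natural antagonist of the interleukin-1 receptor (chromosome 2, 24336853 to 24351494, + strand), had 1.3, 3.85 and 2.56 CPM in C16-treated Tg26 mice, 4.28, 2.65 and 2.58 in untreated Tg26 mice, 0.373, 0.105 and 0.234 in treated WT mice and no count in untreated WT mice. It was at least 18.9-fold higher than the floor of 3 counts per library (adjusted p = 0.00421), and its level in treated Tg26 mice overlapped that in untreated Tg26 mice. Il1f6, an epithelial agonist (IL-36α), had 0.447, 2.19 and 0.741 CPM in C16-treated Tg26 mice and no count in untreated WT mice (at least 8.28-fold, adjusted p = 0.0350). Its receptor Il1rl2 had 1.5, 2.77 and 2.52 CPM in C16-treated Tg26 mice, against 0.687, 0.802 and 0.771 in untreated WT mice (1.58, adjusted p = 0.0409). Il1rl1 (ST2), the receptor of interleukin-33, had 1.10, 1.41 and 2.19 CPM in C16-treated Tg26 mice, against 0.183, 0.127 and 0.193 in untreated WT mice (3.20 ± 0.45, adjusted p = 0.00693). With 1 library left out, Il1f6 lost the call in 8 of 12 fits (adjusted p up to 0.126) and Il1rl2 in 9 (up to 0.175). Il1rl1 lost it without untreated WT replicate 2 (adjusted p = 0.0572), and Il1rn in none of the fits.

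Tubular injury genes were the third group, with 8 of 30 tested members called higher and 0 lower, against 1.35% and 0.236% of all genes. The median log2 fold change was 1.178. Krt19, a keratin of simple epithelia that injured tubules express (chromosome 11, 100140810 to 100148665, - strand), had 2.40, 6.12 and 6.67 CPM in C16-treated Tg26 mice, 30.5, 21.7 and 11.4 in untreated Tg26 mice, 0.326, 0.369 and 0.280 in treated WT mice and 0.275, 0.295 and 0.241 in untreated WT mice. It was higher than in untreated WT mice (4.20 ± 0.52, adjusted p = 0.00421) and lower than in untreated Tg26 mice (-2.06, adjusted p = 0.0313), so treated Tg26 mice formed a group of their own between the others. Havcr1, which encodes the injury marker KIM-1 (chromosome 11, 46735080 to 46779578, + strand), had 13.6, 31.2 and 26.9 CPM in C16-treated Tg26 mice, 118, 24.0 and 38.3 in untreated Tg26 mice, 4.28, 2.37 and 2.34 in treated WT mice and 1.74, 2.41 and 2.26 in untreated WT mice (3.48 ± 0.59, adjusted p = 0.0161). Treated Tg26 mice overlapped the untreated Tg26 mice in Havcr1, and the difference between these groups was not called (-1.33, adjusted p = 0.120). The highest adjusted p of Havcr1 with 1 library left out was 0.0848, without untreated WT replicate 3.

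Cd44, a hyaluronan receptor, had 9.63, 19.4 and 19.2 CPM in C16-treated Tg26 mice, 46.0, 22.8 and 28.6 in untreated Tg26 mice, 3.31, 1.05 and 2.29 in treated WT mice and 1.28, 1.31 and 0.963 in untreated WT mice (3.75 ± 0.43, adjusted p = 0.00370). Vcam1, an adhesion molecule that also marks tubule cells failing to repair, had 42.3, 73.2 and 84.5 CPM in C16-treated Tg26 mice, against 8.74, 9.96 and 12.5 in untreated WT mice (2.68 ± 0.37, adjusted p = 0.00652, and 0.0555 without untreated WT replicate 2). For Vcam1, untreated Tg26 mice had 192, 90.9 and 94.9 CPM and treated WT mice 16.2, 8.12 and 8.74. Vimentin (Vim, 1.22), Lgals3 (galectin-3, 1.21), Dcdc2a (1.95) and Mmp7, which had no count in untreated WT mice and was at least 9.63-fold higher than the floor, were the remaining called members. Lcn2, which encodes NGAL, had 5.89, 28.6 and 24.4 CPM in C16-treated Tg26 mice, against 0.366, 0.380 and 2.89 in untreated WT mice, a separation that missed the threshold (4.05 ± 0.98, adjusted p = 0.0608). Untreated Tg26 mice had 142, 30.7 and 43.3 CPM of Lcn2 and treated WT mice 0.605, 0.105 and 2.76. Spp1 (osteopontin; 0.81, adjusted p = 0.401), Krt8 (-0.11) and Krt7 (0.06) were not called. In untreated Tg26 mice 29 of the 30 genes were called above untreated WT, against 15.7% of all genes. Called lower in treated than in untreated Tg26 mice were 10 of the 30, against 2.66% of all genes. The count of 8 was 16 without C16-treated Tg26 replicate 1 or untreated Tg26 replicate 1, 4 and 3 without C16-treated Tg26 replicates 2 and 3, and 5, 2 and 3 without untreated WT replicates 1, 2 and 3.

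Other epithelial genes were also called, of which Gabrp and Muc4 were nearly silent in untreated WT mice. Gabrp, a GABA receptor subunit of epithelia, had 0.691, 1.53 and 2 CPM in C16-treated Tg26 mice, 7.10, 5.43 and 4.56 in untreated Tg26 mice and no count in untreated WT mice (at least 10.3-fold higher than the floor, adjusted p = 0.00652). It was lower in treated than in untreated Tg26 mice (adjusted p = 0.0399). Muc4, a membrane mucin, had 0.976, 1.82 and 2.04 CPM in C16-treated Tg26 mice, against 1 count in all in untreated WT mice (ratio 108, 19.0 to 4290). Aoc1, a diamine oxidase (chromosome 6, 48872896 to 48909188, + strand), had 16.2, 31.3 and 41.8 CPM in C16-treated Tg26 mice, 131, 48.7 and 40.8 in untreated Tg26 mice, 6.89, 1.85 and 1.92 in treated WT mice and 1.74, 2.20 and 1.3 in untreated WT mice (4.08 ± 0.63, adjusted p = 0.0121, and 0.0719 without untreated WT replicate 3). Treated Tg26 replicate 3 was within the range of the untreated Tg26 mice.

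Most matrix genes were not called, where 1.35% of all genes were called higher and 0.236% lower. Of 21 collagens 1 was called higher and 0 lower, of 33 matrix glycoproteins and proteoglycans 4 were higher and 0 lower, and of 26 matrix proteases and inhibitors 4 were higher and 0 lower, with median log2 fold changes of 0.68, 0.36 and 1.12. In untreated Tg26 mice the same lists had 17, 25 and 21 members called above untreated WT, against 15.7% of all genes. Called lower in treated than in untreated Tg26 mice were 7, 14 and 8 members, against 2.66% of all genes. Col3a1, a fibrillar collagen of interstitial scars (chromosome 1, 45311538 to 45349706, + strand), had 60.9, 67.4 and 109 CPM in C16-treated Tg26 mice, 608, 186 and 111 in untreated Tg26 mice, 22.0, 16.5 and 11.4 in treated WT mice and 15, 15.3 and 13.9 in untreated WT mice (2.43 ± 0.52, adjusted p = 0.0434, and 0.185 without C16-treated Tg26 replicate 3). Treated Tg26 mice lay above every WT mouse and below every untreated Tg26 mouse. Col1a1 (2.40, adjusted p = 0.0823) and the basement membrane chain Col4a1 (0.24, adjusted p = 0.695) were not called.

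Tnc, tenascin-C, a matrix protein of wounds, had 4.92, 12.2 and 7.48 CPM in C16-treated Tg26 mice, against 0.641, 0.971 and 1.11 in untreated WT mice (3.17 ± 0.62, adjusted p = 0.0305). Untreated Tg26 mice had 49, 14.4 and 10 CPM of Tnc and treated WT mice 1.40, 1.69 and 2.38. Mgp, matrix Gla protein, had 78.9, 105 and 126 CPM in C16-treated Tg26 mice, 430, 216 and 171 in untreated Tg26 mice, 40.1, 27.6 and 37.5 in treated WT mice and 35, 29.1 and 33.0 in untreated WT mice (1.67, adjusted p = 0.0211). Thbs2 (1.73) and lumican (Lum, 2.09) were also called. Mgp and Thbs2 were lower in treated than in untreated Tg26 mice (adjusted p = 0.0374 and 0.0399), so they were called against both. No member of the list of glycoproteins was called without C16-treated Tg26 replicate 2 or 3 or without any 1 of the untreated WT replicates, and no collagen without C16-treated Tg26 replicate 2 or 3, any 1 of the 6 WT mice, or untreated Tg26 replicate 2. Without untreated Tg26 replicate 1, 8 collagens, 8 glycoproteins and 11 proteases were called, and without replicate 3 of that group 5 collagens and 8 proteases. Without untreated WT replicate 2 or 3 or C16-treated Tg26 replicate 3, 2 proteases were called.

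Ltbp2, a latent TGF-β binding protein homolog of microfibrils (chromosome 12, 84783212 to 84876532, - strand), had 6.18, 11.9 and 11.9 CPM in C16-treated Tg26 mice, 75.5, 16.9 and 16.1 in untreated Tg26 mice, 1.16, 0.369 and 0.327 in treated WT mice and 0.412, 0.127 and 0.144 in untreated WT mice (5.43 ± 0.85, adjusted p = 0.0121, and 0.0726 without untreated WT replicate 2). Grem1, a secreted BMP antagonist, had 2.20, 3.10 and 6.15 CPM in C16-treated Tg26 mice, 8.40, 12.9 and 10.6 in untreated Tg26 mice, 0.466, 0.369 and 0.374 in treated WT mice and 0.0915, 0.295 and 0.337 in untreated WT mice (3.96 ± 0.47, adjusted p = 0.00421). Both were above all WT mice and below all untreated Tg26 mice. The difference from untreated Tg26 mice was called for Grem1 (adjusted p = 0.0460) but not for Ltbp2 (adjusted p = 0.0756). Of 22 TGF-β ligands, receptors and SMADs, Ltbp2 and Tgfbi were called higher and 0 lower (median -0.01), and no member was called without untreated WT replicate 2 or 3 or C16-treated Tg26 replicate 3. There was 1 without untreated WT replicate 1, untreated Tg26 replicate 2, C16-treated WT replicate 1 or C16-treated Tg26 replicate 2. Pdgfrb, the PDGF receptor of pericytes and fibroblasts, had 30.4, 28.3 and 41.4 CPM in C16-treated Tg26 mice, 90.8, 58.6 and 57.2 in untreated Tg26 mice, 25.4, 17.1 and 19.3 in treated WT mice and 20.2, 21.1 and 21.4 in untreated WT mice. It did not pass against untreated WT (0.68 ± 0.20, adjusted p = 0.121) and was lower than in untreated Tg26 mice (-1.05, adjusted p = 0.0356). Ccn2 showed the same calls, with 0.44 (adjusted p = 0.245) against untreated WT and -1.05 (adjusted p = 0.0302) against untreated Tg26 mice.

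Of 20 antigen presentation genes tested, 4 were called higher and 0 lower, against 1.35% and 0.236% of all genes. Positive values were found in 19 of the 20 (median log2 fold change 0.82). H2-Aa, a class II α chain, had 85.3, 112 and 152 CPM in C16-treated Tg26 mice, 255, 167 and 124 in untreated Tg26 mice, 40.8, 36.8 and 45.8 in treated WT mice and 42.7, 36.3 and 32.7 in untreated WT mice (1.64 ± 0.26, adjusted p = 0.0121). Ciita, the master regulator of class II transcription, had 5.98, 6.54 and 8.26 CPM in C16-treated Tg26 mice, against 2.24, 2.11 and 2.79 in untreated WT mice (1.54 ± 0.20, adjusted p = 0.00534). In Ciita, untreated Tg26 mice had 10.4, 9.25 and 7.77 CPM and treated WT mice 4.28, 3.11 and 3.22. It was not called against C16-treated WT mice (adjusted p = 0.052). H2-Ab1 (1.81) and the invariant chain Cd74 (1.75) were called as well. These were the 4 called members. The class I genes H2-K1 (0.69, adjusted p = 0.152) and H2-D1 (0.27, adjusted p = 0.383) were not called, and classes I and II were not compared with each other. The count was 1 without untreated WT replicate 2 or 3 or C16-treated Tg26 replicate 3, 2 without C16-treated Tg26 replicate 2, and 10 without untreated Tg26 replicate 1. C3, the central complement component (chromosome 17, 57203970 to 57228136, - strand), had 98.0, 275 and 292 CPM in C16-treated Tg26 mice, 1130, 302 and 429 in untreated Tg26 mice, 25.8, 9.60 and 14.5 in treated WT mice and 14.7, 16.4 and 16.8 in untreated WT mice. Treated Tg26 replicate 1 was the lowest of the Tg26 mice and still above all WT mice in C3 (3.80 ± 0.57, adjusted p = 0.00960, and 0.0660 without untreated WT replicate 3). C3 and Itgb2 (1.66) were called higher of 20 complement genes and 0 lower, against 1.35% and 0.236% of all genes. Neither was called without untreated WT replicate 2 or 3, 1 was without C16-treated Tg26 replicate 2 or 3, and 7 and 5 complement genes were without untreated and C16-treated Tg26 replicate 1.

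Of 11 B and plasma cell markers tested, 2 were called higher and 0 lower, 4 had positive values and the median log2 fold change was -0.33. The called members were Igkc and Jchain. Neither was called without any 1 of the 3 untreated WT mice, untreated Tg26 replicate 2, C16-treated WT replicate 1 or 2 or C16-treated Tg26 replicate 2 or 3, and 1 was called without C16-treated WT replicate 3. Igkc, the immunoglobulin κ constant region, had 82.5, 170 and 244 CPM in C16-treated Tg26 mice, 167, 85.8 and 127 in untreated Tg26 mice, 53.7, 53.8 and 117 in treated WT mice and 25.8, 57.7 and 32.6 in untreated WT mice. Treated Tg26 mice were above all untreated WT mice in Igkc (2.10 ± 0.45, adjusted p = 0.0434). Jchain, which joins secreted IgA and IgM, had 38.7, 63.7 and 95.2 CPM in C16-treated Tg26 mice, 37.5, 28.1 and 52.3 in untreated Tg26 mice, 25.3, 31.6 and 36.4 in treated WT mice and 9.06, 28.5 and 16.4 in untreated WT mice (1.87 ± 0.40, adjusted p = 0.0434). Igha, the IgA heavy chain, was called too (1.77). Mean levels of these 3 genes were higher in treated than in untreated Tg26 mice, although none of these differences was called, and the means of C16-treated WT mice were also above those of untreated WT mice. The B cell gene Cd79a was not called (-0.51, adjusted p = 0.761).

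Foxp3, the transcription factor of regulatory T cells, had 0.976, 0.704 and 2 CPM in C16-treated Tg26 mice, against 0.366, 0.169 and 0.0963 in untreated WT mice (2.52 ± 0.54, adjusted p = 0.0434). Untreated Tg26 mice had 2.29, 1.24 and 1.33 CPM of Foxp3 and treated WT mice 0.0931, 0.0527 and 0.0934. Ctla4, an inhibitory receptor of these cells, had 0.976, 1.37 and 3 CPM in C16-treated Tg26 mice, against 0.183, 0.169 and 0.0963 in untreated WT mice (3.53, adjusted p = 0.0369). Foxp3 was the only member called of 15 T cell markers tested, all 15 had positive values (median 1.21), and Cd4 was at 1.57 (adjusted p = 0.0550). Summed T cell marker levels were 23.1, 27.7 and 43.5 CPM in C16-treated Tg26 mice, against 12.7, 19.3 and 12.4 CPM in untreated WT mice, and did not overlap. Igkc, Jchain and Foxp3 were not called without C16-treated Tg26 replicate 3 (adjusted p = 0.199, 0.204 and 0.207).

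Interferon, STAT3 and stress genes were mostly not called. None of 35 interferon-stimulated genes was called by edgeR, although all 35 had positive values (median log2 fold change 0.57). An unadjusted p below 0.05 was found for 11 of them, against 2771 of all 16094 genes tested. Treated Tg26 mice lay above all untreated WT mice in 22 of the 35, against 14.1% of all genes tested. DESeq2 called 3 of the 35 and limma-voom 8, and edgeR called 6 and 3 without untreated Tg26 replicates 1 and 3. Over all genes DESeq2 called 567 higher and 282 lower, and limma-voom 1038 higher and 758 lower. Parp14 was nearest, with 13.6, 12.0 and 17.2 CPM in C16-treated Tg26 mice, against 5.03, 6.59 and 7.75 in untreated WT mice (1.14 ± 0.27, adjusted p = 0.0557). Eif2ak2 itself, the target of C16, had 13.9, 17.5 and 15.6 CPM in C16-treated Tg26 mice, 20.6, 14.9 and 18 in untreated Tg26 mice, 12.9, 12.7 and 15.5 in treated WT mice and 14.7, 18.5 and 17.7 in untreated WT mice. The groups overlapped (-0.11, adjusted p = 0.731). Stat3 was at -0.17 (adjusted p = 0.773) with overlapping groups.

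Of 28 IL-6 family receptors and STAT3 targets, edgeR called none, 8 had an unadjusted p below 0.05, DESeq2 called 4 and limma-voom 5 higher and 1 lower. Timp1, an inhibitor of matrix proteases, had 2.64, 7.08 and 4.19 CPM in C16-treated Tg26 mice, against 0.549, 0.0844 and 0 in untreated WT mice (4.42 ± 0.99, adjusted p = 0.0506). For Timp1, untreated Tg26 mice had 32, 6.43 and 4.20 CPM and treated WT mice 0.233, 0.264 and 0.234. Socs3, the feedback inhibitor of STAT3, was at 1.93 (adjusted p = 0.0629). Among 26 integrated stress response genes 2 were called higher, Slc7a11, the cystine transporter (2.01), and Nupr1 (1.32), while the transcription factor Atf4 was at -0.25 (adjusted p = 0.241). NF-κB genes Traf1 (2.18 ± 0.28, adjusted p = 0.00512) and Nfkbie (1.41, adjusted p = 0.0409), an inhibitor of the factor, were called of 16. These counts of 2 were 0 for stress genes without any 1 of the untreated WT mice, C16-treated Tg26 replicate 2 or 3 or untreated Tg26 replicate 2, and 1 without any 1 of the C16-treated WT mice. For NF-κB genes the count was 8 without untreated Tg26 replicate 1 and 1 without untreated Tg26 replicate 2, C16-treated Tg26 replicate 2 or 3 or any 1 WT mouse. No cell cycle gene of 35 was called by edgeR or DESeq2, limma-voom called 1, 1 had an unadjusted p below 0.05, and Mki67, a proliferation marker, was at 0.62 (adjusted p = 0.521).

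**Figure D3:**
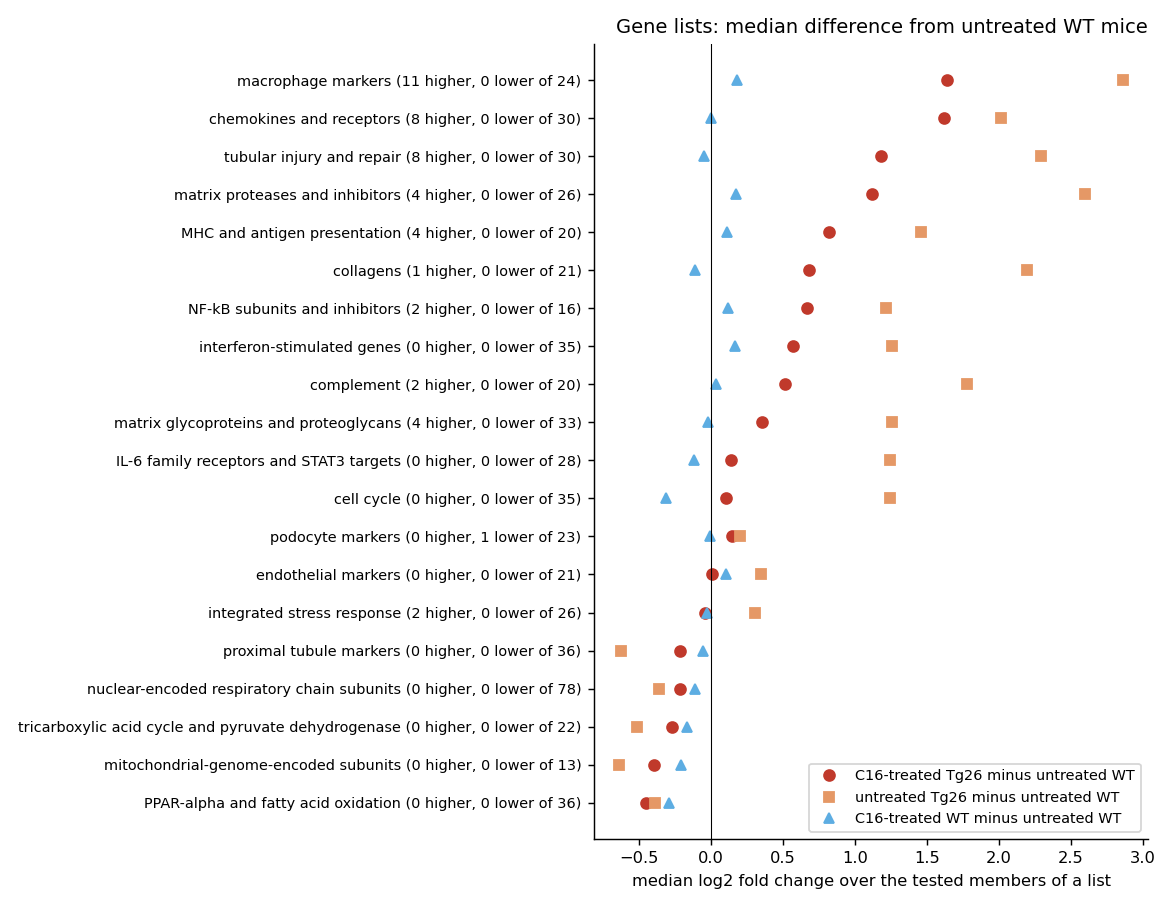
Median log2 fold change over the tested members of 20 gene lists (x axis) in C16-treated Tg26, untreated Tg26 and C16-treated WT mice, each minus untreated WT; numbers beside each list are members called in C16-treated Tg26 against untreated WT. The treated Tg26 medians ranged from 1.64 for macrophage markers to -0.45 for PPARα and fatty acid oxidation, and the 3 comparisons share the untreated WT mice.

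The lower genes were fewer and smaller in change. None of the 38 was called lower against C16-treated WT mice, where 0.00621% of all genes tested were called in that direction. Eif4ebp3, a repressor of cap-dependent translation, had 7.44, 16 and 16.8 CPM in C16-treated Tg26 mice, 16.2, 11.5 and 46.1 in untreated Tg26 mice, 17.0, 15.3 and 19.1 in treated WT mice and 68.2, 117 and 113 in untreated WT mice (log2 fold change -2.89 ± 0.47, adjusted p = 0.0144). The untreated WT mice stood alone at the high end, and treated Tg26 and treated WT mice overlapped. Mfsd2a, a transporter of lysophospholipids (chromosome 4, 122946850 to 122961188, - strand), had 35.6, 33.8 and 43.3 CPM in C16-treated Tg26 mice, 96.1, 38.7 and 111 in untreated Tg26 mice, 109, 98.6 and 79.6 in treated WT mice and 89.4, 241 and 239 in untreated WT mice (-2.34 ± 0.41, adjusted p = 0.0187). Untreated WT replicate 1 was much lower than the other 2 in Mfsd2a.

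Upp2, a uridine phosphorylase (chromosome 2, 58567298 to 58792971, + strand), had 14.6, 22.5 and 19.3 CPM in C16-treated Tg26 mice, 6.41, 12.7 and 17.4 in untreated Tg26 mice, 27.5, 24.3 and 16.6 in treated WT mice and 50.7, 60.7 and 58.6 in untreated WT mice (-1.59 ± 0.30, adjusted p = 0.0243). Slc38a3, the glutamine transporter SNAT3 of the proximal tubule (chromosome 9, 107650634 to 107669530, - strand), had 42.6, 32.1 and 36.5 CPM in C16-treated Tg26 mice, 136, 69.2 and 158 in untreated Tg26 mice, 74.0, 50.4 and 54.8 in treated WT mice and 74.9, 93.7 and 109 in untreated WT mice (-1.32 ± 0.27, adjusted p = 0.0344). Treated Tg26 mice had less Slc38a3 than all other mice, and it was also called against untreated Tg26 mice (-1.71, adjusted p = 0.0278). Glul, glutamine synthetase (chromosome 1, 153899944 to 153909723, + strand), had 458, 461 and 375 CPM in C16-treated Tg26 mice, 573, 569 and 391 in untreated Tg26 mice, 460, 545 and 421 in treated WT mice and 800, 765 and 890 in untreated WT mice (-0.92 ± 0.16, adjusted p = 0.0191). Its pseudogene Glns-ps1 was called with it (-0.95), and reads may be split between these copies, so the level of each is uncertain.

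Slc25a33, a mitochondrial carrier of pyrimidine nucleotides (chromosome 4, 149744036 to 149774277, - strand), had 12.0, 15.1 and 9.89 CPM in C16-treated Tg26 mice, 12.5, 13.4 and 14.7 in untreated Tg26 mice, 17.4, 14.6 and 14.3 in treated WT mice and 22.4, 27.3 and 30.1 in untreated WT mice (-1.11 ± 0.16, adjusted p = 0.00888). It had the smallest adjusted p of the lower genes, 0.0555 without untreated WT replicate 2. Insig1, which holds back sterol synthesis, had 36.8, 43.9 and 30.0 CPM in C16-treated Tg26 mice, 36.9, 31.4 and 56.0 in untreated Tg26 mice, 49.7, 43.9 and 50.1 in treated WT mice and 67.7, 85.7 and 86.5 in untreated WT mice (-1.12, adjusted p = 0.0211). The podocyte genes Nphs1, which encodes nephrin (-0.18, adjusted p = 0.793), and Synpo, which encodes synaptopodin (0.24, adjusted p = 0.345), were not called.

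Prkag3 (-1.44), a regulatory subunit of the energy sensor AMPK, Ttpa (-1.20), which carries vitamin E, and Xlr3b (-1.17), a member of an X-linked family of near-identical copies and so uncertain, were also among the largest falls. The remaining called genes included Castor1 (-0.72), an arginine sensor of the mTORC1 pathway, Mknk2 (-0.45), a kinase of the cap-binding factor eIF4E, and Map2k6 (-0.88), a kinase upstream of p38. C16-treated Tg26 means lay farther from untreated WT than untreated Tg26 means in 30 of the 38 genes. The 38 were chosen by the distance of treated Tg26 from untreated WT mice, so this count follows in part from that choice. Over the 38 genes the mean log2 level relative to all 12 libraries was -0.46, -0.27 and -0.45 in C16-treated Tg26 mice, -0.16, -0.20 and 0.04 in untreated Tg26 mice, -0.06, -0.10 and -0.07 in treated WT mice and 0.37, 0.64 and 0.72 in untreated WT mice. A score of circadian clock genes, which follows the time of day, was at 3.77, 3.48 and 2.46 in C16-treated Tg26 mice, 3.14, 2.83 and -0.17 in untreated Tg26 mice, 2.88, 3.36 and 2.31 in treated WT mice and 3.87, 1.63 and 0.77 in untreated WT mice. With that score in the fit, 113 genes were higher and 19 lower.

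**Figure D4:**
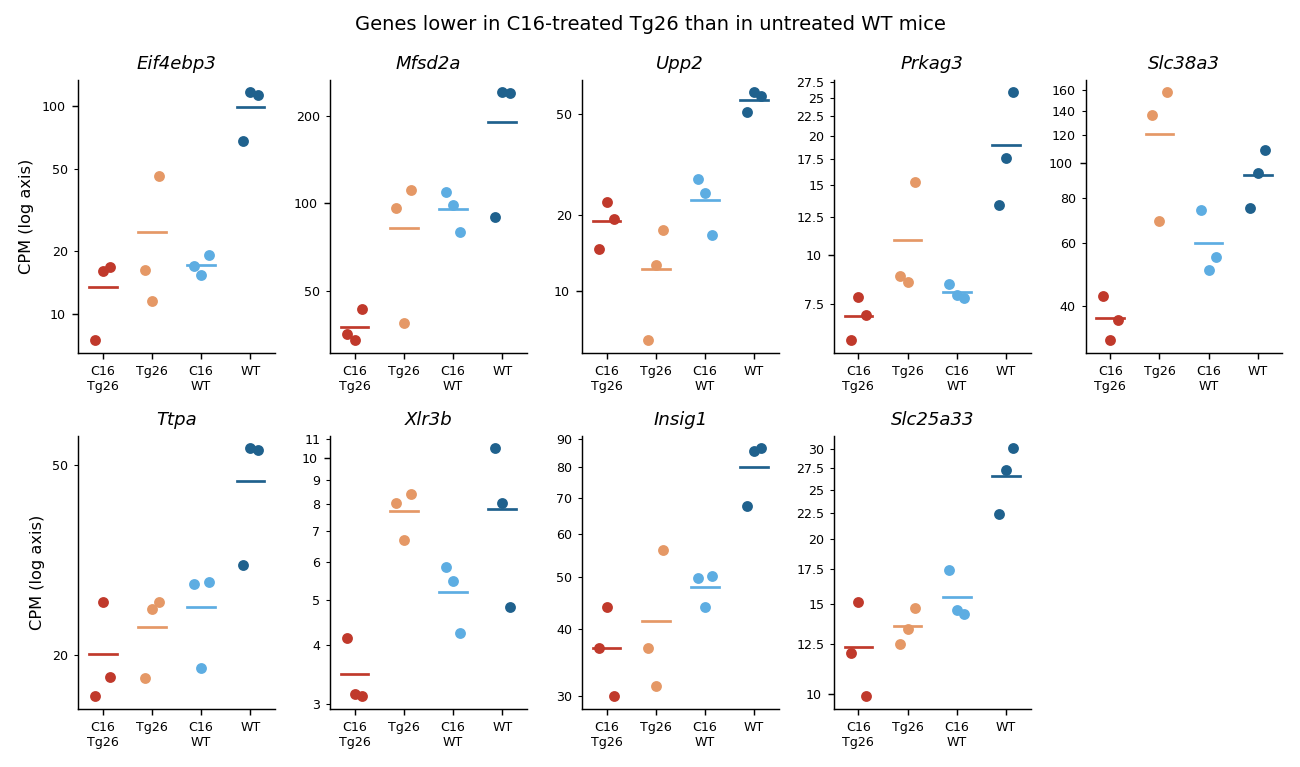
CPM (log axis) of 9 called genes with the largest falls in each mouse of the 4 groups, C16-treated Tg26 at the left and untreated WT at the right of each panel; points are mice and lines are group means. Slc25a33 was at 9.89 to 15.1 CPM in C16-treated Tg26 mice and at 22.4 to 30.1 CPM in untreated WT mice, and in each panel the untreated WT mice lie above all 3 treated Tg26 mice.

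Metabolic genes of the tubule had mostly negative values and did not pass the test in edgeR. Of 36 PPARα and fatty acid oxidation genes edgeR called none, 35 had negative values (median log2 fold change -0.45) and 20 had an unadjusted p below 0.05, while DESeq2 called 3 lower and limma-voom 16. The groups did not overlap in 26, against 12.5% of all genes in that direction. Eci2, which handles unsaturated fatty acids, had 100, 118 and 94.1 CPM in C16-treated Tg26 mice, 80.9, 114 and 150 in untreated Tg26 mice, 130, 112 and 142 in treated WT mice and 151, 178 and 192 in untreated WT mice (-0.74, adjusted p = 0.0818). All 22 tricarboxylic acid cycle and pyruvate dehydrogenase genes had negative values (median -0.27), 12 had an unadjusted p below 0.05, and edgeR called none, DESeq2 1 and limma-voom 15. Fumarase (Fh1) was at -0.46 (adjusted p = 0.0993).

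All 13 genes of the mitochondrial genome had negative values too (median -0.39, 8 with an unadjusted p below 0.05, none called by edgeR, 3 by DESeq2 and 7 by limma-voom). mt-Nd1, a complex I subunit, had 6360, 8310 and 6910 CPM in C16-treated Tg26 mice, 6180, 7180 and 7470 in untreated Tg26 mice, 8030, 6840 and 9120 in treated WT mice and 10200, 11500 and 11300 in untreated WT mice (-0.61 ± 0.16, adjusted p = 0.0768). Treated Tg26 mice were below all untreated WT mice and overlapped the other 2 groups. Of 78 nuclear-encoded respiratory chain subunits 77 had negative values (median -0.22), 29 had an unadjusted p below 0.05, and edgeR called none, DESeq2 3 and limma-voom 28. Without untreated Tg26 replicate 1, edgeR called 4, 8, 5 and 10 members of these 4 lists lower, and without replicate 3 it called 1, 0, 0 and 0. Of 36 proximal tubule markers 6 had positive values (median -0.21) and 7 had an unadjusted p below 0.05, against 2771 of all 16094 genes. Of these markers edgeR called none, DESeq2 1 and limma-voom 4, while 21 were called lower in untreated Tg26 than in untreated WT mice. Without untreated Tg26 replicate 1 edgeR called 3 lower. In untreated Tg26 mice, edgeR called 10, 21, 10 and 54 members of the first 4 lists lower than in untreated WT mice, where 10.5% of all genes were called in that direction. In C16-treated WT mice the values were negative in 33 of 36, 22 of 22, 13 of 13 and 72 of 78. These comparisons share the untreated WT mice. Scaled by library totals alone, the medians of these lists were nearer to 0, up to -0.04 for proximal tubule markers, where the median of all genes was 0.19.

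The 3 treated Tg26 mice were not alike. Of the 218 higher genes, replicate 1 was the lowest of the 3 in 180 and replicate 3 the highest in 169. Over these genes the mean log2 level relative to all 12 libraries was 0.34, 0.83 and 1.09 in C16-treated Tg26 replicates 1, 2 and 3, 1.95, 1.36 and 1.21 in untreated Tg26 mice, -0.88, -1.07 and -0.92 in treated WT mice and -1.32, -1.25 and -1.34 in untreated WT mice. Treated Tg26 replicate 3 was thus close to the lowest untreated Tg26 mouse, and replicate 1 was the farthest from the untreated Tg26 mice. The macrophage score followed the same order, at -0.04, 0.59 and 0.93 in C16-treated Tg26 mice, 2.21, 1.45 and 1.20 in untreated Tg26 mice, -0.96, -1.14 and -0.80 in treated WT mice and -1.04, -1.14 and -1.25 in untreated WT mice. Its part in the other gene groups was not tested. Red cell markers had summed levels of 462, 142 and 59.0 CPM in C16-treated Tg26 replicates 1, 2 and 3, against 357, 372 and 220 CPM in untreated WT mice.

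**Figure D5:**
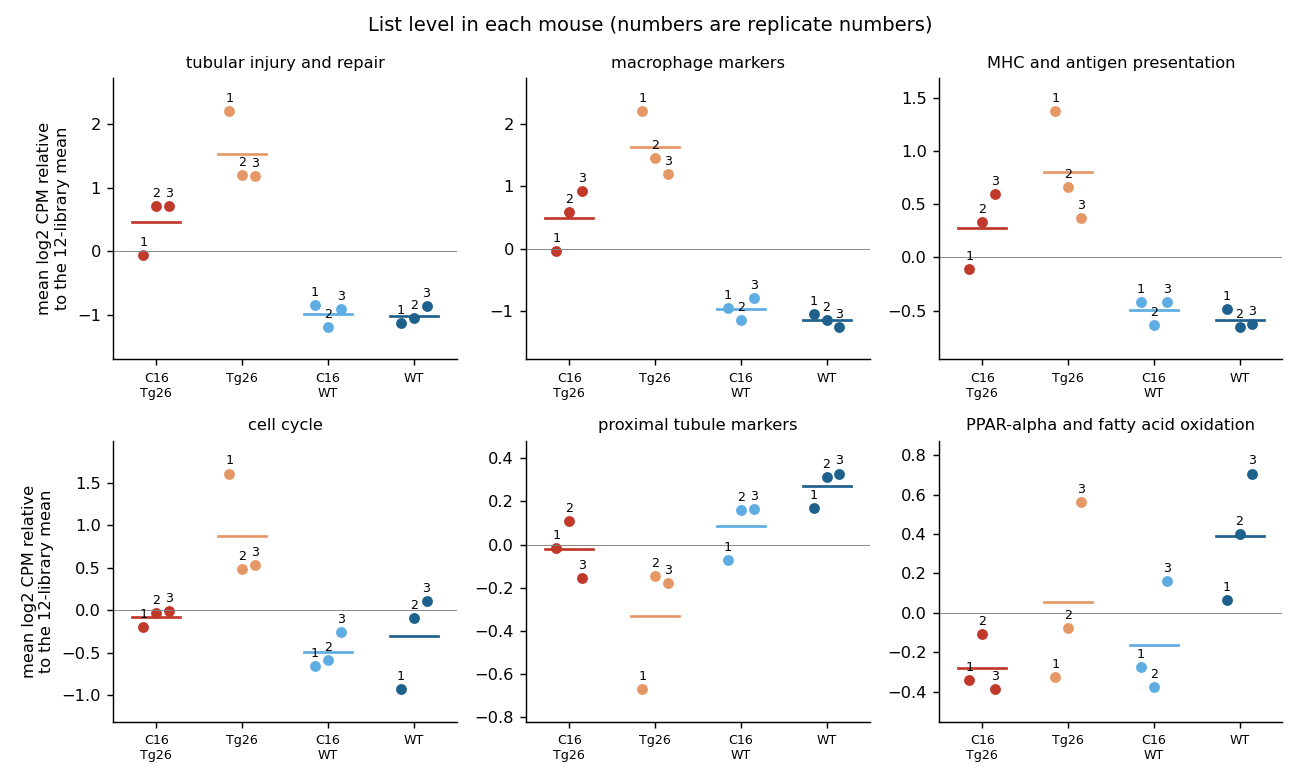
Mean log2 CPM of 6 gene lists in each mouse, relative to the mean of the 12 libraries (y axis), with C16-treated Tg26 at the left and untreated WT at the right; points are mice numbered by replicate and lines are group means. In macrophage markers the treated Tg26 mice lie between -0.04 and 0.93, above all 6 WT mice and below all 3 untreated Tg26 mice.

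The C16-treated Tg26 mean lay between the untreated Tg26 and untreated WT means in 198 of the 218 higher genes and beyond the untreated Tg26 mean in 20. Of the 218, 40 were called lower in treated than in untreated Tg26 mice and 0 higher, with 2.66% and 0.758% of all genes called in those directions and 3.42% in either. Apoe, the lipid carrier made by macrophages among other cells, was 1 of the 40. Its level was 160, 229 and 265 CPM in C16-treated Tg26 mice, 711, 479 and 437 in untreated Tg26 mice, 68.4, 61.0 and 65.8 in treated WT mice and 77.9, 74.6 and 90.2 in untreated WT mice. The log2 fold change was 1.43 ± 0.20 against untreated WT (adjusted p = 0.00717) and -1.31 against untreated Tg26 (adjusted p = 0.0278). Against C16-treated WT mice, 89 of the 218 were called higher, with 0.69% of all genes called in that direction, 0.00621% in the other and 0.696% in either. The 218 were chosen for high values in the same treated Tg26 mice, so a share above that of all genes follows in part from the choice. Counts of the 218 against untreated Tg26 mice are likewise not independent of it. H2-M2, a nonclassical MHC gene, was among the 20 beyond the untreated Tg26 mean. It had 0.935, 1.08 and 2.07 CPM in C16-treated Tg26 mice, 0.682, 0.447 and 0.442 in untreated Tg26 mice, 0.0466, 0.105 and 0.140 in treated WT mice and 2 counts in all in untreated WT mice (ratio 45.9, 12.4 to 384). It was not called against untreated Tg26 mice (adjusted p = 0.0836).

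In some called genes, picked after their values had been seen, the C16-treated WT mice also lay above untreated WT mice. Ciita, described above, was 1 of them. Of 21 endothelial markers tested edgeR called none and 3 had an unadjusted p below 0.05, against 2771 of all 16094 genes. Of the markers 11 had positive values and the median was 0.01. DESeq2 called none of them, and limma-voom 1 higher and 1 lower. Aplnr, the apelin receptor of endothelium, had 17.9, 11 and 15.1 CPM in C16-treated Tg26 mice, 15.7, 14.5 and 7.73 in untreated Tg26 mice, 12.6, 13.3 and 8.97 in treated WT mice and 6.09, 3.59 and 4.09 in untreated WT mice (1.68 ± 0.30, adjusted p = 0.0211). Plxnd1, a semaphorin receptor of endothelium, had 50.6, 46.2 and 40.6 CPM in C16-treated Tg26 mice, 83.0, 60.3 and 53 in untreated Tg26 mice, 41.5, 36.9 and 43.5 in treated WT mice and 27.9, 22.7 and 22.2 in untreated WT mice (0.92 ± 0.16, adjusted p = 0.0201). In both genes the untreated WT mice were below the other 9 mice. No gene was called by edgeR between C16-treated and untreated WT mice, where 1199 had an unadjusted p below 0.05, so for these genes the effect of C16 on WT mice was not called either. The part of the treatment and of the transgene in such genes cannot be told apart from the comparison of treated Tg26 with untreated WT mice alone, and no gene was called for an interaction of genotype and C16 (2047 at an unadjusted p below 0.05).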

How the data were processed

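Outer kidney cortex RNA of 12 mice was sequenced as paired reads from TruSeq Stranded mRNA libraries. Per the labels and methods, the authors used cutadapt 1.18 for trimming, STAR 2.7.0f for alignment to mm10, and RSEM 1.3.1 with Ensembl 96 for quantification. The deposited values are expected counts from RSEM without normalization. They were whole numbers, and rounding changed 0 values. RSEM shares reads among similar genes, so levels of paralogs are uncertain.

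Genes passing filterByExpr (count of 10 in 3 libraries, total of 15) were tested, 16094 of 55450. After TMM scaling, the quasi-likelihood test of edgeR 4.0.16 (limma 3.58.1, R 4.3.3) was fitted over the 4 groups, so all 12 libraries set the spread. Genes with a Benjamini-Hochberg adjusted p below 0.05 were called. The SE is the log2 fold change divided by the square root of F. CPM values use TMM-scaled library sizes. Total counts were 19877877 to 27000388 per library. The labels do not say how the mice of a group are related, so p-values measure the spread between these samples. The pipeline was tested on simulated data.

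Named genes are the 10 largest changes each way among called genes whose groups did not overlap and whose mean reached 1 CPM, the 3 called members of each list with the smallest adjusted p (or the nearest member), genes the paper names, and genes also called between C16-treated and untreated WT mice, of which there were 0. The largest changes omit Y-linked genes, Xist, gene models without a proper name, and segments of immunoglobulin genes. Some genes that these rules select are not reported here. Genes named beyond these were chosen after their values were seen. The members and the lists were chosen with earlier results of these data known, so no list was tested and each is given by its counts and median. Promoters were to be shown for called STAT3 targets, of which there were 0. Coordinates are from GENCODE vM21 (GRCm38). Alternatives were DESeq2 1.42.0, limma-voom with sample weights, RLE and library-size scaling, other filters, the 6 libraries alone, a replicate block, a clock score as a term, and leaving out each library. Figures were drawn with matplotlib 3.10.9.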

Additional observations from a re-analysis of the deposited data

How the results depend on the processing

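The counts of 218 higher and 38 lower genes became 567 and 282 with DESeq2, 1038 and 758 with limma-voom and sample weights, 485 and 20 with library sizes only, 421 and 110 with no filter on low counts, 337 and 116 with only the 6 libraries, and 113 and 19 with the clock score as a term. RLE scaling (203 and 38) and a stricter filter (207 and 35) gave similar counts. With 1 library left out, the counts ran from 28 to 569 higher and from 0 to 273 lower genes. DESeq2, limma-voom and library sizes only called all 218 higher genes again, and the replicate block 112 of them. With the replicate block the counts were 116 and 36. Same-numbered C16-treated Tg26 and untreated WT mice deviated together by correlations of 0.219, 0.11 and 0.00122. For differently numbered mice of these groups the correlations ran from -0.203 to 0.114. Replicate 3 of the treated Tg26 mice correlated best with WT replicate 2. The clock score was lowest in replicate 3 in each of the 4 groups. The labels do not say what a replicate number stands for, and the mice were not treated as pairs in the reported fit. Library sizes only moved the median of all genes to 0.187 and turned the medians of these lists from below to above 0: TGF-β genes (0.168), integrated stress response (0.132), p53 targets (0.127), sterol synthesis (0.122), sex-linked markers (0.0706), organic ion transporters (0.0624), Klotho and phosphate genes (0.0497), amino acid transporters (0.0482), immediate early genes (0.0383) and NRF2 targets (0.0307). The TGF-β median was also positive without untreated WT replicate 3 (0.0964), and with 1 library left out it ran from -0.0153 to that value. The cause of these differences was not tested. A sex term could not be fitted, since all 12 libraries expressed Y-linked genes. Genes with under 1 CPM in untreated WT mice, 97 of the 218, rest on few counts there.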
